A study of Rattus norvegicus with 4 samples.

Results

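The miR-181 family in these rat liver libraries comprised 4 mature microRNAs (miRNAs), which are short RNAs that silence messenger RNAs: rno-miR-181a, rno-miR-181b, rno-miR-181c and rno-miR-181d (the prefix rno, for rat, is left out where a name recurs). They were taken by name, as the family's rows without an asterisk, and made up 4 of the 680 rat miRNA names listed in each file. A further 6 rows carry a miR-181 name with an asterisk, which in this older naming style marks the minor arm of the precursor hairpin.

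A miRNA finds its target messenger RNAs mainly through its seed, a short stretch near its 5′ end, so miRNAs that share a seed are expected to share many targets. The miR-181 miRNAs are best known from lymphocytes, where miR-181a tunes the sensitivity of the T cell receptor and promotes B cell development. In liver they have been studied in hepatic stellate cells, the cells that lay down collagen, where transforming growth factor beta raises miR-181b, and in liver cancer cells with stem cell features. In blood vessels miR-181b dampens inflammatory signalling in the endothelium.

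The study set liver labelled as hepatic fibrosis against liver labelled as normal, with 2 libraries of each. All are small RNA libraries of total RNA from rat liver tissue. The labels do not give how the fibrosis was induced, the strain, sex or age of the rats, or whether the replicates came from separate animals. The second fibrosis file and the second normal file differed in 0 of 680 values. They were counted once and are called the shared library, because it stands under both tissue labels. The header of its value column matches the sample title in the second fibrosis file, as the headers of both first files do, but is another name in the second normal file. The headers do not settle its tissue. The first replicate of each group, called fibrosis library 1 and normal library 1, stands under a single label. No error between animals can be given from such data. Every interval given here covers counting error and nothing else.

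The values were deposited as reads per 1000000 reads (RPM), and the reads behind them were recovered from the smallest step in each file. The files were scaled to 6951148 reads in fibrosis library 1, 7070374 in normal library 1 and 6357069 in the shared library, and 50.5% to 52.5% of these fell on the listed miRNAs. As a check of the tissue, the 6 hepatocyte miRNAs listed for this purpose summed to 253116, 273757 and 257059 RPM in the same order, nearly all of it miR-122, the miRNA that defines hepatocytes.

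The mature sequences are shown because the members share a seed and differ so little elsewhere that their reads could be exchanged. Bases 2 to 8, the seed, are in capitals, and each sequence runs 5′ to 3′ (RefSeq, GRCr8).
miR-181a: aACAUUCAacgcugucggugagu
miR-181b: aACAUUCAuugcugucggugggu
miR-181c: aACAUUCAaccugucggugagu
miR-181d: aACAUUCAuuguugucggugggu

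All 4 carried the seed ACAUUCA, and they were the only ones to do so among the 694 mature rat entries with a distinct name and sequence in the RefSeq table. Counting positions from 1 at the 5′ end, miR-181d differed from miR-181b by a single substitution, C12U with the base of miR-181b first. Relative to miR-181a, miR-181b carried A9U, C10U and A21G. miR-181c was 22 bases long against 23 for miR-181a and lay at an edit distance of 1 from it. miR-181a and miR-181c were thus the closest pair on one side and miR-181b and miR-181d on the other. How reads that match several members were assigned is not given in the sources used here, so the separate values of each close pair are uncertain.

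The family is encoded in 3 pairs of neighbouring hairpins, all on the plus strand of GRCr8. miR-181a comes from Mir181a2 (mature sequence at chr3:43025601-43025623) and from Mir181a-1 (chr13:52037081-52037103), and the mature RNA of both is the same. Mir181b2 follows Mir181a2 on chromosome 3, where the RefSeq annotation also places the protein-coding gene Nr6a1 and a long noncoding RNA. Mir181b1 (mature miR-181b at chr13:52037263-52037285) follows Mir181a-1 on chromosome 13 within an annotated long noncoding RNA. miR-181c (chr19:40888314-40888335) and miR-181d (chr19:40888484-40888506) stand next to each other on chromosome 19, outside other annotated genes. The file values are per mature name, so the reads of miR-181a and miR-181b cannot be divided between the clusters on chromosomes 3 and 13.

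The hairpins of Mir181a2, Mir181c and Mir181d show how both arms of a precursor lie, with the miR-181 arm first and the asterisk arm second, both in capitals.
Mir181a2: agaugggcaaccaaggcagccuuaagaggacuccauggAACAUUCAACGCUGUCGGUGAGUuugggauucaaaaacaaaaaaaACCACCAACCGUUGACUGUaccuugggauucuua
Mir181c: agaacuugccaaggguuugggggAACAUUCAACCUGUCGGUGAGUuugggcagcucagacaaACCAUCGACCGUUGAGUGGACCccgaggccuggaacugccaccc
Mir181d: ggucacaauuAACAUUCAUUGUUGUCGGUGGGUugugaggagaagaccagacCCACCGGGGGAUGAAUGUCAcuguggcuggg

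The family was a small part of the liver's miRNA reads. Its 4 members together held 57.4 RPM in fibrosis library 1 (399 reads, 95% exact binomial interval 51.9 to 63.3), 38.8 RPM in normal library 1 (274 reads, 34.3 to 43.6) and 37.1 RPM in the shared library (236 reads, 32.5 to 42.2). As a share of the reads on listed miRNAs this was 0.0114% (0.0103 to 0.0125), 0.00750% (0.00664 to 0.00844) and 0.00707% (0.00619 to 0.00803) in the same order. Fibrosis library 1 was the high library, and its interval lay above those of the other 2, which overlapped each other.

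rno-miR-181a, the most abundant member, stood at 37.5 RPM in fibrosis library 1 (261 reads), 25.5 RPM in normal library 1 (180 reads) and 25.0 RPM in the shared library (159 reads). It ranked 45th, 51st and 54th by reads among the listed miRNAs of these libraries. rno-miR-181b, encoded beside miR-181a in both of its clusters, stood at 15.0 RPM (104 reads), 10.2 RPM (72 reads) and 8.81 RPM (56 reads), at ranks 66, 72 and 74. Both members were highest in fibrosis library 1 and lowest in the shared library, which for miR-181a lay close to normal library 1.

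rno-miR-181d had 4.46 RPM in fibrosis library 1 (31 reads), 2.97 RPM in normal library 1 and 3.30 RPM in the shared library (21 reads each). rno-miR-181c was near the limit of detection, with 3 reads in fibrosis library 1 (0.432 RPM), 1 read in normal library 1 (0.141 RPM) and 0 reads in the shared library, which allows a level of up to 0.472 RPM when the limit of a count of 0 is set at 3 reads, as for every count of 0 here. At these depths no difference in miR-181c between the libraries was detectable. The order of the levels was miR-181a, miR-181b, miR-181d and miR-181c in all 3 libraries, and within each library the counting intervals of neighbours in that order did not overlap.

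**Figure D1:**
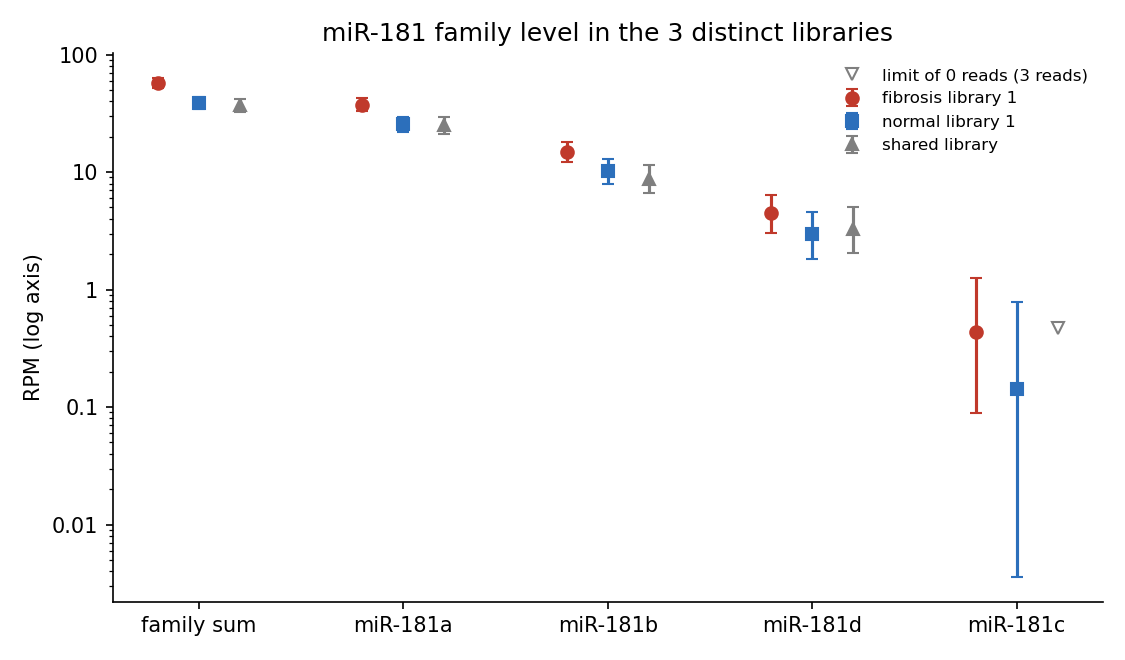
Level of the family sum and of each member in RPM (log axis) in fibrosis library 1 (red circles), normal library 1 (blue squares) and the shared library (grey triangles), with 95% exact binomial intervals and an open triangle for the limit that 0 reads allows. The family sum is highest in fibrosis library 1 (57.4 RPM), and each member lies below the one before it in all 3 libraries.

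The make-up of the family did not differ between the libraries beyond counting error. miR-181a took 65.4% of the family's reads in fibrosis library 1 (95% exact binomial interval 60.5 to 70.1), 65.7% in normal library 1 (59.7 to 71.3) and 67.4% in the shared library (61.0 to 73.3). miR-181b took 26.1% (21.8 to 30.7), 26.3% (21.2 to 31.9) and 23.7% (18.5 to 29.7). miR-181d took 7.77% (5.34 to 10.8), 7.66% (4.81 to 11.5) and 8.90% (5.59 to 13.3). miR-181c took 0.752% (0.155 to 2.18) and 0.365% (0.00924 to 2.02) in fibrosis library 1 and normal library 1, and 0 of 236 reads in the shared library, which allows a share of up to 1.27% by the same limit of 3 reads. For each member the intervals of all 3 libraries overlapped.

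**Figure D2:**
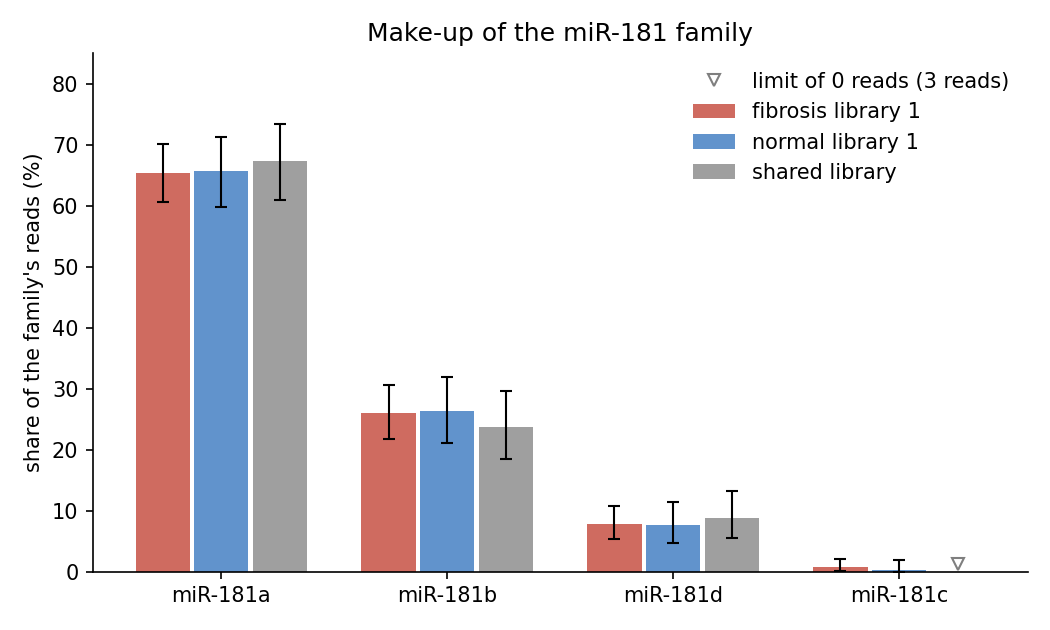
Share of the family's reads (%) taken by each member in fibrosis library 1 (red), normal library 1 (blue) and the shared library (grey), with 95% exact binomial intervals and an open triangle for the limit that 0 reads allows. The bars of a member stand at nearly the same height in all 3 libraries, from 65.4% to 67.4% for miR-181a.

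The ratio of the clustered members was close to the same in the 3 libraries. miR-181a had 2.51 reads for each read of miR-181b in fibrosis library 1 (95% exact interval 1.99 to 3.18), 2.50 in normal library 1 (1.89 to 3.33) and 2.84 in the shared library (2.08 to 3.92). The odds ratio of that proportion, fibrosis library 1 over normal library 1, was 1.004 (conditional exact 95% interval 0.691 to 1.45). The counts at this depth leave shifts within these bounds possible. The odds ratio was 1.14 (0.740 to 1.75) for the shared library over normal library 1 and 0.884 (0.592 to 1.31) for fibrosis library 1 over the shared library. These ratios do not depend on how the libraries are scaled.

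In the chromosome 19 cluster miR-181d outnumbered miR-181c in all 3 libraries, with 31 against 3 reads in fibrosis library 1, 21 against 1 in normal library 1 and 21 against 0 in the shared library. The ratio was 10.3 (3.22 to 52.8) in fibrosis library 1 and 21.0 (3.38 to 868) in normal library 1, intervals too wide to set the libraries apart. miR-181a and miR-181b together had 10.7 reads for each read of miR-181c and miR-181d in fibrosis library 1 (7.54 to 15.7), 11.5 in normal library 1 (7.40 to 18.6) and 10.2 in the shared library (6.53 to 16.9). The odds ratio of fibrosis library 1 over normal library 1 was 0.937 (0.509 to 1.69).

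When the members closest in sequence were pooled, which removes any exchange of reads within a pair, miR-181a with miR-181c had 1.96 reads for each read of miR-181b with miR-181d in fibrosis library 1 (1.58 to 2.42), 1.95 in normal library 1 (1.51 to 2.53) and 2.06 in the shared library (1.56 to 2.75). miR-181b had 3.35 reads for each read of miR-181d in fibrosis library 1 (2.23 to 5.19), 3.43 in normal library 1 (2.08 to 5.87) and 2.67 in the shared library (1.59 to 4.64). The intervals of the 3 libraries overlapped for both ratios.

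The minor arms were close to absent. miR-181a-1* had 2 reads in fibrosis library 1, 5 in normal library 1 and 0 in the shared library, and miR-181a-2* had 2, 3 and 2. These arms are shown because, unlike miR-181a itself, they differ between the clusters on chromosomes 13 and 3.
miR-181a-1*: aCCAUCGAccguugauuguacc
miR-181a-2*: aCCACCAAccguugacugu

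Bases 2 to 8 are again in capitals, and the arms share no seed with miR-181a or with each other. miR-181d* had 1 read, in fibrosis library 1, and miR-181b-1*, miR-181b-2* and miR-181c* had 0 reads in all 3 libraries, which allows up to 0.432, 0.424 and 0.472 RPM in fibrosis library 1, normal library 1 and the shared library. miR-181a had 65.3 reads for each read of its asterisk arms in fibrosis library 1 (25.2 to 241), 22.5 in normal library 1 (11.2 to 52.9) and 79.5 in the shared library (21.6 to 662). The intervals overlapped and rest on 2 to 8 reads of the asterisk arms, and a shift between arms was not tested. miR-181a-1* and miR-181a-2* together had fewer reads in fibrosis library 1 (4) than in normal library 1 (8), while miR-181a had more.

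The comparison that the labels imply, fibrosis against normal liver, gave no call for any member. limma on log2(RPM + 1) over the 4 files called 0 of the 294 miRNAs with a read in any library at an adjusted p under 0.05 (0% called), and 4 had an unadjusted p under 0.05. edgeR's quasi-likelihood test and DESeq2 on the recovered reads also called 0, with 1 and 0 at an unadjusted p under 0.05. The fitted log2 differences on the log2(RPM + 1) scale, fibrosis over normal, were 0.27 for miR-181a (SE 0.35), 0.26 for miR-181b (SE 0.39), 0.16 for miR-181c (SE 0.18) and 0.23 for miR-181d (SE 0.42), and limma's adjusted p was 1 for each. With the shared library in both groups, each fitted difference averages the difference between the other 2 libraries with a difference of 0, and in this fit the SE was set by the trend of variance on abundance across all miRNAs. That layout could hardly have called a change. With the shared library counted once as fibrosis, the fitted differences were 0.26, 0.16, 0.07 and 0.29 in the same order of members. Counted once as normal, it gave 0.56, 0.61, 0.42 and 0.40, and the smallest adjusted p among the members over both of these fits was 0.658 by limma. In both fits the group with 1 library was assumed to vary like the other.

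Between fibrosis library 1 and normal library 1 alone, miR-181a and miR-181b were higher in fibrosis library 1, and miR-181d had a ratio of the same size with an interval that included 1. The ratio of RPM was 1.47 for miR-181a (95% exact counting interval 1.22 to 1.79), 1.47 for miR-181b (1.08 to 2.01) and 1.502 for miR-181d (0.836 to 2.75). For miR-181c it was 3.05 on 3 reads against 1 (0.245 to 160). For the family sum it was 1.48 (1.27 to 1.73), and the interval covers counting error in these libraries and not the spread between rats. A total of 2 of the 4 members had intervals above 1, against 7.58% of the 277 miRNAs with a read in either library. The other 2 were the members with the fewest reads.

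At a threshold of 1.5-fold, miR-181c and miR-181d passed and miR-181a and miR-181b fell just short, while 27.8% of those 277 miRNAs passed, names with 0 reads in normal library 1 included. Among the 76 that averaged 10 RPM or more over both, where ratios rest on more reads, 6.58% were at least 1.5-fold higher in fibrosis library 1 and 23.7% had intervals above 1. miR-181a and miR-181b stood at ranks 7 and 8 of these 76 by ratio, against a median ratio of 0.926. miR-181c and miR-181d fell under that minimum.

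**Figure D3:**
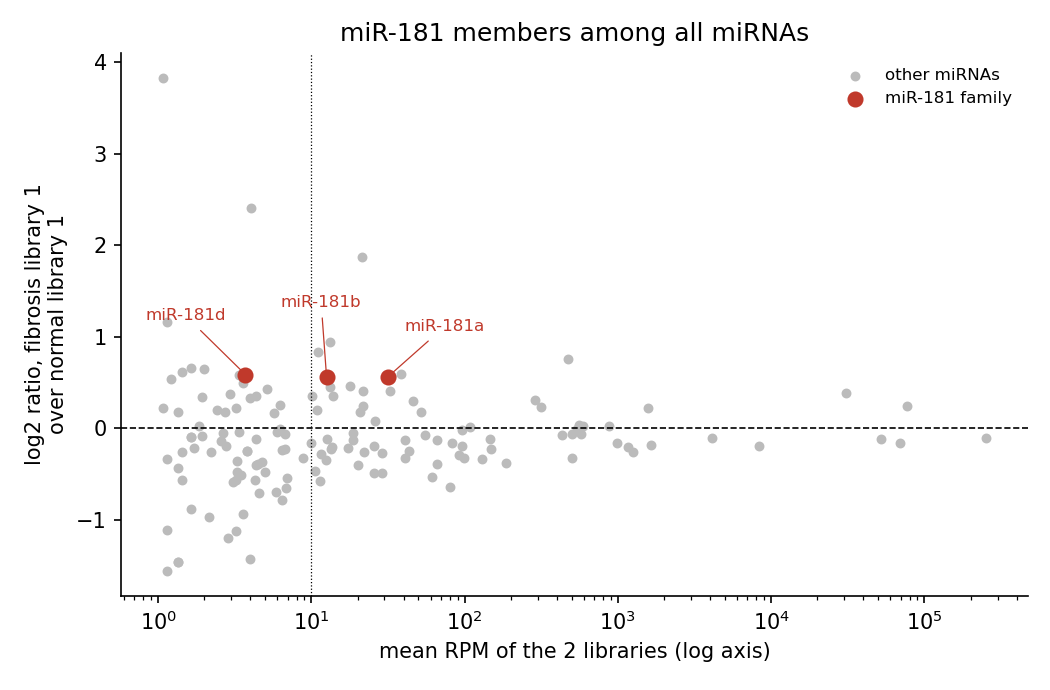
Log2 ratio of RPM, fibrosis library 1 over normal library 1, against the mean RPM of both libraries (log axis) for the 147 miRNAs that averaged 1 RPM or more, with the dotted line at 10 RPM. miR-181a, miR-181b and miR-181d (red) lie side by side at 0.56, 0.56 and 0.59, and miR-181c is below the plotted range of abundance.

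The shared library did not repeat the high level of fibrosis library 1. Its family sum was 0.958 times that of normal library 1 (0.801 to 1.14), with 0.982 for miR-181a (0.789 to 1.22), 0.865 for miR-181b (0.599 to 1.24) and 1.11 for miR-181d (0.578 to 2.14). All of these intervals included 1, while 10.3% of the 272 miRNAs with a read in either of these libraries had intervals above 1 and 16.2% below. Fibrosis library 1 exceeded the shared library 1.55-fold in family sum (1.31 to 1.82), with 1.501 for miR-181a (1.23 to 1.84), 1.70 for miR-181b (1.22 to 2.39) and 1.35 for miR-181d (0.751 to 2.47). In that pair 2 of the 4 members had intervals above 1, against 12.0% of 274 miRNAs. That share includes miRNAs with few reads, whose intervals are wide, and was not taken among abundant miRNAs for this pair.

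The high level was thus that of 1 library, and its relation to the tissue labels depends on how the shared library is counted. Counted as normal liver, it left the sole fibrosis library at 57.4 RPM, against normal libraries at 38.8 and 37.1 RPM. Counted as fibrosis, the label of the file with the matching header, the fibrosis libraries stood at 57.4 and 37.1 RPM, on both sides of the sole normal library at 38.8 RPM.

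**Figure D4:**
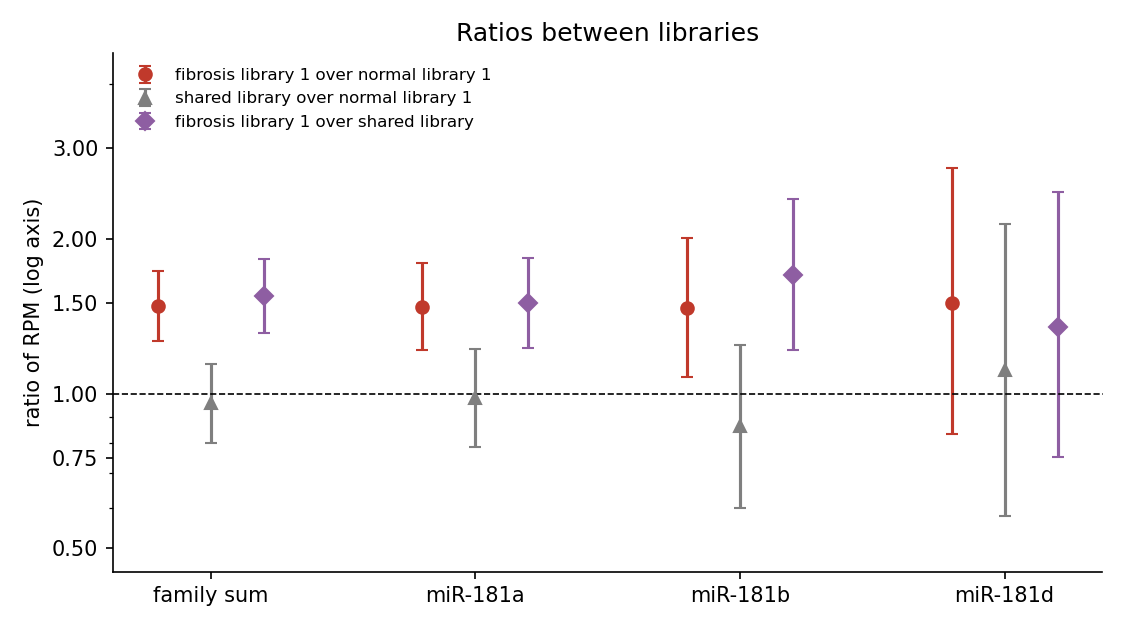
Ratios of RPM (log axis) for the family sum and for miR-181a, miR-181b and miR-181d between fibrosis library 1 and normal library 1 (red circles), the shared library and normal library 1 (grey triangles), and fibrosis library 1 and the shared library (purple diamonds), with 95% exact counting intervals. Both ratios of fibrosis library 1 lie above 1 for the family sum (1.48 and 1.55), and that of the shared library over normal library 1 lies at 0.958.

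The patterns most like that of the family sum were sought over the 3 distinct libraries, as the Euclidean distance between centred log2(RPM + 1) values, among the 73 that averaged 10 RPM or more. With only 3 libraries this is a description. The nearest were miR-181a (distance 0.0352) and miR-181b (0.0929), which are part of the sum, and then miR-139-3p (0.114), miR-503 (0.294) and miR-23a (0.345). miR-139-3p stood at 15.2 RPM in fibrosis library 1, 11.2 RPM in normal library 1 and 10.7 RPM in the shared library. miR-503, a regulator of the cell cycle, stood at 17.4, 9.05 and 11.6 RPM in the same order. miR-23a stood at 55.4, 49.1 and 49.4 RPM.

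**Figure D5:**
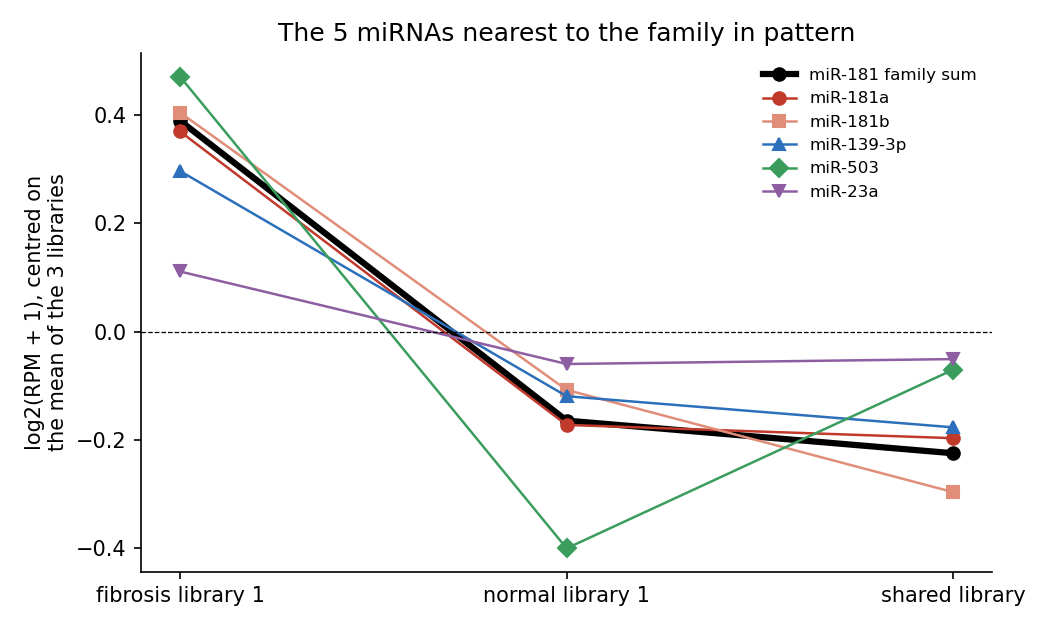
Log2(RPM + 1), centred on the mean of the 3 libraries, for the family sum (black) and the 5 miRNAs nearest to it, with lines joining the values of 1 miRNA. The family sum, miR-181a, miR-181b and miR-139-3p are high in fibrosis library 1 and at similar lower values in normal library 1 and the shared library. miR-23a is also highest in fibrosis library 1, by a smaller margin, while miR-503 is lowest in normal library 1.

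miR-23a, miR-27a and miR-24 are encoded near miR-181c and miR-181d on chromosome 19, on the opposite strand (miR-24 also has a copy on another chromosome). All 3 had ratios above 1 between fibrosis library 1 and normal library 1, and 2 had intervals above 1. Of the 277 miRNAs with a read in either library, these counts were 134 and 21. Of the 147 that averaged 1 RPM or more, they were 52 and 20. miR-23a gave 1.13 (0.974 to 1.31), miR-24 gave 1.33 (1.10 to 1.61) and miR-27a gave 5.31 (2.57 to 12.3), on 385, 259 and 47 reads against 347, 198 and 9. Unlike the miR-181 members, miR-24 and miR-27a were highest in the shared library, at 48.8 RPM and 11.5 RPM, against 37.3 and 6.76 RPM in fibrosis library 1 and 28.0 and 1.27 RPM in normal library 1.

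Of 15 miRNAs described as responding to transforming growth factor beta or to stellate cell activation, 7 had ratios above 1 and 8 below, with 4 intervals above 1 and 5 below. Of all 277 miRNAs with a read in either library, 134 had ratios above 1 and 143 below, with 7.58% of intervals above 1 and 11.9% below. Of the 147 that averaged 1 RPM or more, 52 had ratios above 1 and 95 below, with 20 intervals above 1 and 33 below. The list's median log2 ratio was -0.13, and that of all 147 miRNAs that averaged 1 RPM or more was -0.13 too. Its most abundant members were miR-192 at 0.876 (0.866 to 0.886), miR-29a, which represses collagen genes, at 0.881 (0.858 to 0.904), miR-21 at 0.897 (0.867 to 0.927) and miR-199a-3p, made by stellate and other mesenchymal cells, at 1.69 (1.61 to 1.78). Like the miR-181 members, miR-199a-3p was higher in fibrosis library 1 than in normal library 1, but it was higher still in the shared library (903 RPM, against 592 RPM in fibrosis library 1 and 350 RPM in normal library 1).

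Markers of leukocytes, endothelium, mesenchymal cells, erythroid cells and hepatocytes were set beside the miR-181 sum. That sum was 57.4 RPM in fibrosis library 1, 38.8 RPM in normal library 1 and 37.1 RPM in the shared library. The last 2 did not differ beyond counting error (ratio of the shared library over normal library 1 0.958, 0.801 to 1.14). The 7 leukocyte miRNAs summed to 88.6 RPM in fibrosis library 1, 55.3 RPM in normal library 1 and 108 RPM in the shared library. Most of it was miR-142-5p and miR-146b. Between the first and the second library, 4 ratios were above 1 and 3 below, with 2 intervals above 1 and 1 below. Of the 277 miRNAs with a read in either library, 21 had intervals above 1 and 33 below. Of the 147 that averaged 1 RPM or more, 20 had intervals above 1 and 33 below. The 2 endothelial miRNAs, miR-126 and miR-126*, summed to 7.77, 6.51 and 10.9 RPM, and neither interval excluded 1. The 5 stellate and mesenchymal miRNAs summed to 669, 466 and 1009 RPM, nearly all of it miR-199a-3p and miR-143, with 2 ratios above 1 and 3 below. The 2 erythroid miRNAs, miR-144 and miR-451, summed to 2.88, 7.78 and 2.04 RPM. The leukocyte, endothelial and mesenchymal sums were highest in the shared library, where the miR-181 sum was close to that of normal library 1. Single markers did not all follow their sum. miR-143 was highest in normal library 1 (97.3 RPM, against 62.1 RPM in fibrosis library 1 and 91.2 RPM in the shared library). miR-145, miR-199a-5p and the leukocyte miR-342-3p were lowest in the shared library. The leukocyte miR-146b was at 33.7 RPM in fibrosis library 1, 9.19 RPM in normal library 1 and 33.2 RPM in the shared library. Its ratio between the first 2 was 3.66 (2.77 to 4.90). miR-142-3p was highest in normal library 1, on 3 to 5 reads a library, and miR-146a was lowest in fibrosis library 1. miR-142-5p, miR-223 and miR-150 had the order of the leukocyte sum. miR-214 had the order of the mesenchymal sum, at 3.31 RPM in fibrosis library 1, 2.55 RPM in normal library 1 and 5.66 RPM in the shared library. miR-199a-3p, which made up most of that sum, had this order too. All 6 hepatocyte miRNAs were lower in fibrosis library 1 than in normal library 1, with intervals below 1, against 143 and 33 of the 277. Of the 147 miRNAs that averaged 1 RPM or more, 95 had ratios below 1 and 33 had intervals below 1. In the shared library miR-193 was above its level in normal library 1 (34.6 against 30.1 RPM), and the other hepatocyte miRNAs were below theirs. None of the markers named here was at 0 in any library. The part of cell make-up in the miR-181 levels was not tested, and in bulk tissue fewer cells of a type and less RNA per cell cannot be told apart.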

How the data were processed

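Small RNA libraries of total RNA from rat liver were prepared with Illumina reagents, as the protocols in the labels state. CASAVA 1.4 and the genome build rn5 are named in the submitters' processing notes. The sources used here do not give the aligner, the miRNA annotation or the handling of multiply matching reads. The authors deposited RPM per miRNA name, scaled to a library total that also holds reads outside the listed miRNAs. Dividing by the value of 1 read gave whole reads, within 0.01 reads, for 100% of the values above 0. Such recovered reads are not independent molecules.

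Groups came from the tissue label. The members, lists and tests were chosen with earlier results of these data known. limma 3.58.1 (R 4.3.3) was fitted to log2(RPM + 1), allowing the variance to depend on abundance, with p-values adjusted by Benjamini and Hochberg over all miRNAs with a read. Changes of rare miRNAs are understated on this scale. Alternatives on the recovered reads used edgeR (4.0.16) or else DESeq2 (1.42.0), and there were other scalings, pseudocounts, a filter, the replicate number as a block, and files left out in turn. Intervals of ratios came from the exact binomial interval of reads in 1 library among both (scipy 1.17.1). The miRNAs named are the 4 members, their asterisk arms, the 5 nearest patterns, and list members. Lists of up to 3 names were named in full. The 4 most abundant of the list for transforming growth factor beta or stellate cell activation were named, and all 5 mesenchymal markers. All 7 leukocyte markers were named too, and the hepatocyte miR-122 as nearly all of its sum. Sequences are from RefSeq (GRCr8) and were matched by name: miR-181a in the files is miR-181a-5p there, likewise for the other members, and an asterisk is the 3p arm.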

Additional observations from a re-analysis of the deposited data

How the results depend on the processing

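The count of 0 miRNAs called between fibrosis and normal was the same in 8 of 8 scaling, threshold and tool alternatives. All 8 kept the shared library in both groups, a layout that could hardly have called a change. When files were left out in turn, 1 group held 1 library, so the count is not given for those fits. No paired inference can be drawn from the replicate numbers: the correlation of same-numbered deviations was 0.683, but both second files are the same library. With the replicate number as a block, limma again called 0, and miR-181a had an unchanged fitted log2 difference of 0.27 with an adjusted p of 0.602. Of 47 member values over the alternatives of the limma fit, 3 turned direction, all when fibrosis library 1 was left out: -0.012 for miR-181a, -0.095 for miR-181b and -0.095 for miR-181c. The ranges with each file left out were -0.012 to 0.56, -0.095 to 0.61 and -0.095 to 0.42 for these members, and 0.06 to 0.40 for miR-181d. miR-181c did not reach a mean of 1 RPM and has no value under that filter.

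The ratio of the family sum, fibrosis library 1 over normal library 1, ran from 1.41 (upper-quartile factors) to 1.62 (listed miRNAs without miR-122 and let-7) over 6 other scalings, all with intervals above 1. The last of these scalings shifts every log2 ratio by 0.13. With the shared library in place of fibrosis library 1 the ratio was no longer above 1. It was 0.958 for the family, 0.982 for miR-181a and 0.865 for miR-181b, with intervals that all included 1. In place of normal library 1 it gave 1.55 for the family. The ratio was 1.47 with miR-181a and miR-181b only and 1.46 with the asterisk arms added. The odds ratio of miR-181a to miR-181b reads stayed between 0.884 and 1.14 in 3 alternatives. Depth limits miR-181c and the asterisk arms, which had 0 to 5 reads a library.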
